A study of Rattus norvegicus with 16 samples.

Results

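Spindle, chromosome and cytokinesis genes were followed here as 8 genes: Kif23, Kif22, Kif2c, Tacc3, Aspm, Nusap1, Anln and Top2a. A feature of the array was taken for a gene when the chip annotation gave it exactly 1 symbol and that symbol was one of these. The 8 genes had 15 features, among 6241 named genes and 12559 genes and unnamed features tested in all (units, below). The arrays measured RNA of neural stem and progenitor cells isolated from Sprague-Dawley rat neocortex at embryonic day 14.5 and expanded as a monolayer on poly-L-ornithine and fibronectin, with 10 ng/ml of the fibroblast growth factor FGF-2 in the medium. PDGF-AA at 6 d was the group kept for 6 d with platelet-derived growth factor AA at 10 ng/ml, and no factor at 6 d was kept as long without added growth factor. PDGF-AA at 12 h and no factor at 12 h were the same conditions after 12 h. Each of the 4 groups had 4 two-colour arrays, on which its RNA was set against RNA of cells in FGF-2, and the sample was in Cy5 on 2 arrays and in Cy3 on the others. Cells of all 4 groups, like the reference, had been grown in FGF-2 beforehand.

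A cell that divides builds a bipolar microtubule spindle, attaches and aligns its chromosomes on it, separates them and then cleaves. Kinesins are motors that walk along microtubules or take them apart, spindle proteins bundle and anchor microtubules, anillin organises the contractile ring, and topoisomerase II untangles sister DNA molecules. Most of these genes are transcribed late in the cell cycle and are little transcribed in cells that have left it, so their messengers are widely used as marks of proliferation. FGF-2 is a mitogen of cortical progenitors, and PDGF-AA acts on cells that carry PDGF receptor alpha. In RNA from a whole culture, fewer dividing cells and less RNA per dividing cell cannot be told apart.

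All values are log2 ratios to the FGF-2 RNA, or differences between such ratios, and a ratio of 0 means equal to FGF-2. The base of the deposited logarithm is not stated and was taken as 2. The direction of the ratios is not stated either, and sample over reference is the likely one. The basis is that DNA replication genes lie below 0 after withdrawal of the mitogen, so a fall of dividing-cell genes is not an independent result here. Every sign below rests on this direction, and the sizes of differences do not. Between 2 arrays of different groups with the sample in the same dye, the lowest correlation over all units was 0.0466, and none was below 0. Arrays of the same dye share the dye effect, so these correlations cannot check the direction on arrays of the other dye. Within a group the median correlation was 0.503 between arrays of the same dye and 0.0911 between arrays of opposite dye. Among units with a large mean ratio in Cy5, between 58.65% and 89.43% by group had the same sign in Cy3. The dye moved many units (4907 of 12559, 39.1%, had a dye effect past the threshold), among the 8 genes Top2a by 0.85, Anln by -0.61 and Kif23 by 0.45 (Cy5 minus Cy3), and every test had a dye term. At least 2 RNA preparations lay behind the 4 arrays of a group, per the labels, without saying which arrays share one, so p-values measure the spread between hybridisations. Ratio values cannot show whether a progenitor marker is present in the cells. Of 15 listed progenitor markers 7 were tested, Nes, Vim, Id1, Id2, Id3, Prom1 and Tnc, and Sox2 and Pax6 were not among the units tested.

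The promoters of such genes are known for 2 short motifs. The CCAAT box binds the factor NF-Y, and the cell cycle genes homology region (CHR) is bound by the DREAM and MuvB complexes, which repress in resting cells and activate late in the cycle. All 8 symbols matched rat genes of RefSeq on GRCr8, with 9 promoter windows of 250 bases before to 50 after the start site, since Kif2c had 2. Both strands were searched for the letters CCAAT and for TTTGAA or TTCGAA as the CHR. The sequences below are the 250 bases before the start site of Top2a and Aspm, each the lowest of the 8 genes in at least 1 group, of Tacc3, next to Top2a in both 12 h groups, and of Anln, whose estimate was the smallest of the 8 there. They are written 5′ to 3′ on the strand of the gene, with CCAAT and CHR letters in capitals.
Top2a, chr10:84473094-84473343, minus strand: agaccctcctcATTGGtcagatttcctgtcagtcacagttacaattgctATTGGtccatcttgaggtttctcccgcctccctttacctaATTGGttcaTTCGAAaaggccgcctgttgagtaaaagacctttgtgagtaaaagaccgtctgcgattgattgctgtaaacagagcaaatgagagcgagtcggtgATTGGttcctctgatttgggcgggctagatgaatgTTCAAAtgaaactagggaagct
Tacc3, chr14:81289699-81289948, minus strand: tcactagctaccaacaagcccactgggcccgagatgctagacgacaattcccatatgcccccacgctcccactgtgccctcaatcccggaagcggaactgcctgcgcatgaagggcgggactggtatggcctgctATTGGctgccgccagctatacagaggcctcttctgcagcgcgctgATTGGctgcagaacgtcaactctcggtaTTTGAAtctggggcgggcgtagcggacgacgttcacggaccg
Aspm, chr13:53625334-53625583, plus strand: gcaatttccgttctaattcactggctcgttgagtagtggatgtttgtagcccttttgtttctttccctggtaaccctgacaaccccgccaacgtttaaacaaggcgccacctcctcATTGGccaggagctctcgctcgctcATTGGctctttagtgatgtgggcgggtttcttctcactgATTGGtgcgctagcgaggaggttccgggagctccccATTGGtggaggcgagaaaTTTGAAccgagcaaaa
Anln, chr8:29197514-29197763, minus strand: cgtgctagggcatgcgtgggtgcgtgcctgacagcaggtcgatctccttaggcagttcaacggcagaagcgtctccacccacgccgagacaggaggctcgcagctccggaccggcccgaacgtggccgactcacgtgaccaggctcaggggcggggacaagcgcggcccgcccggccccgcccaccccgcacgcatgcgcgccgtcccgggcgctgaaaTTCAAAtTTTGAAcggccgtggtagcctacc
Top2a held 4 CCAAT boxes and 2 CHR matches in its window, Aspm 4 and 1, Tacc3 2 and 1, and Anln 0 and 2. The CHR of Aspm began 16 bases before the start site (offset -16), that of Tacc3 at offset -42, and the matches of Top2a at offsets -152 and -22. A CHR was present in 7 of 8 genes, against 19.7% of all 33469 rat windows of the same length. At least 1 CCAAT box was present in 6 of 8 genes, against 37.5% of windows, and 2 or more in 5 of 8, against 11.2%. Both motifs stood in the windows of 6 of 8 genes, against 7.95% of all windows. Neither Kif2c window held either motif, and no CCAAT match overlapped a CHR match in the 8 genes. These are matches of letters and were not measured as binding.

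All 8 genes were lower than in FGF-2 after 12 h, with the lowest estimates in the cultures without growth factor, and fewer passed the threshold after 6 d. After 6 d in PDGF-AA 2 of 8 were lower past the threshold, Aspm and Tacc3, and the median over the 8 genes was -0.46 (all units 0.0036). After 6 d without factor 7 of 8 were, and the median was -0.77 (all units 0.0043). With PDGF-AA at 12 h all 8 were lower, with a median of -1.15 (all units -0.0005). After 12 h without factor all 8 were, with a median of -1.62 (all units -0.001) and changes between -2.49 for Top2a and -0.83 for Anln. Over all units, 1.32% were lower past the threshold in PDGF-AA at 6 d, 6.73% in no factor at 6 d, 2.35% in PDGF-AA at 12 h and 6.48% in no factor at 12 h. Adjusted p-values here and below are Benjamini-Hochberg values over all 12559 units from limma, with a threshold of 0.05, and errors of changes are standard errors with n = 4 arrays per group.

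Kif23 encodes the motor of centralspindlin, the complex that bundles the central spindle and directs cleavage. Its ratios were 0.25, -0.52, -0.77 and -1.19 on the PDGF-AA arrays at 6 d, against -0.86, -0.96, -1.27 and -0.19 without factor at 6 d. At 12 h they were -1.34, -1.33, -0.99 and -0.87 with PDGF-AA, against -1.95, -1.18, -1.78 and -1.68 without factor. The groups overlapped at both times, at 12 h through 1 array without factor that lay at -1.18. In PDGF-AA at 6 d its value of -0.56 ± 0.16 did not pass (adjusted p = 0.071). Kif23 changed by -0.82 ± 0.16 in no factor at 6 d (adjusted p = 0.00197), by -1.13 ± 0.16 in PDGF-AA at 12 h (adjusted p = 0.00143) and by -1.65 ± 0.16 in no factor at 12 h (adjusted p = 6.28e-06).

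Kif22 encodes a chromokinesin that pushes chromosome arms toward the spindle equator. Its mean ratios per array lay between -0.64 and 0.003 in PDGF-AA at 6 d, between -0.90 and -0.32 in no factor at 6 d, between -1.08 and -0.46 in PDGF-AA at 12 h and between -1.50 and -0.85 in no factor at 12 h. With PDGF-AA at 6 d its value of -0.41 ± 0.12 missed the threshold (adjusted p = 0.0743). Kif22 changed by -0.63 ± 0.12 in no factor at 6 d (adjusted p = 0.00148), by -0.76 ± 0.12 in PDGF-AA at 12 h (adjusted p = 0.0022) and by -1.14 ± 0.12 in no factor at 12 h (adjusted p = 1.0e-05). These means join 2 features that gave different values, as described below.

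Kif2c encodes MCAK, a kinesin that does not walk but depolymerises microtubule ends at centromeres and so frees wrong attachments. Its ratios at 6 d were 0.04, -0.71, 1.04 and -0.26 with PDGF-AA, against -0.93, -0.51, -0.84 and -0.47 without factor. After 12 h they were -1.42, -1.21, -0.40 and -0.77 with PDGF-AA, against -0.91, -1.48, -2.31 and -1.31 without factor. Its 4 PDGF-AA arrays at 6 d fell on both sides of 0, and the array at 1.04 was the highest value of any of the 8 genes on the 16 arrays. In PDGF-AA at 6 d the estimate was 0.03, with a 95% interval of -0.42 to 0.48. Kif2c changed by -0.69 ± 0.21 in no factor at 6 d (adjusted p = 0.039), by -0.95 ± 0.21 in PDGF-AA at 12 h (adjusted p = 0.0196) and by -1.50 ± 0.21 in no factor at 12 h (adjusted p = 0.000156). The call in no factor at 6 d was lost without replicate 1, 2 or 3 of that group, with values between -0.68 and -0.55. It was lost as well without the dye term (adjusted p = 0.1023), when the arrays were scaled to equal spread (0.0791) and when only arrays with the commonest number in their title were used (0.0789). In PDGF-AA at 12 h it was lost without replicate 1 (-0.86, adjusted p = 0.1685) or replicate 2 (-0.77, adjusted p = 0.1719) of that group, without the dye term (adjusted p = 0.0691) and with scaled arrays (adjusted p = 0.0505).

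Tacc3 encodes a protein that, with clathrin and ch-TOG, crosslinks and steadies the microtubules pulling on kinetochores. Its ratios at 6 d were 0.26, -0.83, -0.67 and -1.31 with PDGF-AA, against -0.98, -1.01, -1.42 and -0.69 without factor. After 12 h its ratios were -1.39, -1.51, -1.10 and -0.96 with PDGF-AA, against -2.20, -1.36, -1.95 and -1.76 without factor. The 12 h groups overlapped through 1 array without factor, replicate 2 at -1.36. In PDGF-AA at 6 d it changed by -0.63 ± 0.17 (adjusted p = 0.048), a call that stood at the threshold. It was lost in 14 of 16 fits that left out 1 array, without the dye term (adjusted p = 0.1557) and with scaled arrays (adjusted p = 0.0570). The call was also lost without centring (0.0521), with the first title number as a term (0.2713), with only its own group fitted (0.377) and with array weights (0.1299). Tacc3 changed by -1.03 ± 0.17 in no factor at 6 d (adjusted p = 0.000496), by -1.24 ± 0.17 in PDGF-AA at 12 h (adjusted p = 0.000912) and by -1.82 ± 0.17 in no factor at 12 h (adjusted p = 4.89e-06). Its 3 features each passed the threshold in these 3 comparisons.

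Aspm encodes a large protein of spindle poles and is known as a gene whose loss causes microcephaly in humans. Its ratios at 6 d were -0.19, -0.90, -0.76 and -1.22 with PDGF-AA, against -1.26, -1.02, -1.05 and -0.46 without factor. At 12 h they were -1.42, -1.46, -0.66 and -1.39 with PDGF-AA, against -1.99, -1.23, -1.93 and -1.24 without factor. By the mean of its 2 features it was the only gene of the 8 that lay below 0 on all 16 arrays. On replicate 1 of PDGF-AA at 6 d those features stood at 0.25 and -0.64. Aspm changed by -0.77 ± 0.18 in PDGF-AA at 6 d (adjusted p = 0.0263), by -0.95 ± 0.18 in no factor at 6 d (adjusted p = 0.00167), by -1.23 ± 0.18 in PDGF-AA at 12 h (adjusted p = 0.00175) and by -1.60 ± 0.18 in no factor at 12 h (adjusted p = 1.99e-05). The first of these calls was lost without replicate 2, 3 or 4 of PDGF-AA at 6 d, with values of -0.71, -0.78 and -0.62. It was lost as well with the first title number as a term (adjusted p = 0.3489), when only its own group was fitted (0.1589) and with array weights (0.0795).

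Nusap1 encodes a protein that binds and bundles spindle microtubules around chromosomes. Its ratios at 6 d were 0.73, -0.31, -0.83 and -0.68 with PDGF-AA, against -0.68, -0.64, -0.86 and -0.66 without factor. The values at 12 h were -1.38, -1.45, -0.49 and -1.39 with PDGF-AA, against -2.02, -1.62, -1.86 and -1.49 without factor. All 4 PDGF-AA arrays at 12 h lay above all 4 without factor. In PDGF-AA at 6 d the estimate was -0.27 (95% interval -0.68 to 0.14). Nusap1 changed by -0.71 ± 0.20 in no factor at 6 d (adjusted p = 0.0212), by -1.18 ± 0.20 in PDGF-AA at 12 h (adjusted p = 0.00326) and by -1.75 ± 0.20 in no factor at 12 h (adjusted p = 1.89e-05). The call at 6 d was lost without replicate 1, 3 or 4 of no factor at 6 d, at values between -0.70 and -0.69, and with scaled arrays (-0.76, adjusted p = 0.0536).

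Anln encodes anillin, which links actin, myosin and septins in the cleavage furrow. Its ratios at 6 d were -0.20, 0.10, -0.23 and -0.11 with PDGF-AA, against -0.85, -0.31, -0.22 and -0.66 without factor. After 12 h they were -0.98, -0.56, -0.11 and -1.18 with PDGF-AA, against 0.17, -1.19, -1.79 and -0.49 without factor. In no factor at 12 h both Cy5 arrays lay at or below -1.19 and both Cy3 arrays at or above -0.49. At 6 d no call was made for Anln, at -0.11 ± 0.17 with PDGF-AA (95% interval -0.47 to 0.26) and -0.51 ± 0.17 without factor (adjusted p = 0.0627). The value without factor was called with scaled arrays (-0.57, adjusted p = 0.0424) and when only its own group was fitted (adjusted p = 0.0161). Its change of -0.71 ± 0.17 in PDGF-AA at 12 h (adjusted p = 0.0328) was lost without replicate 1, 2 or 4 of that group, with values between -0.72 and -0.65, and without the dye term (adjusted p = 0.2049). In no factor at 12 h Anln changed by -0.83 ± 0.17 (adjusted p = 0.00441), a call lost without replicate 3 of that group (-0.59, adjusted p = 0.0546).

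Top2a encodes topoisomerase II alpha, the form of the enzyme made in dividing cells, which decatenates sister chromatids. Its ratios at 6 d were 0.68, -0.47, -0.72 and -1.55 with PDGF-AA, against -1.02, -1.18, -1.47 and -0.60 without factor. At 12 h they were -1.32, -1.86, -1.55 and -0.85 with PDGF-AA, against -3.24, -1.77, -2.16 and -2.78 without factor. The 12 h groups overlapped by 1 pair of arrays of opposite dye, at -1.86 with PDGF-AA and -1.77 without factor. In PDGF-AA at 6 d the value of Top2a was -0.51 ± 0.18 (adjusted p = 0.154), with arrays on both sides of 0. Top2a changed by -1.07 ± 0.18 in no factor at 6 d (adjusted p = 0.000659) and by -1.40 ± 0.18 in PDGF-AA at 12 h (adjusted p = 0.000912), rank 3 from the lowest of all 12559 units. In no factor at 12 h it changed by -2.49 ± 0.18 (adjusted p = 1.28e-06), which is 5.61-fold lower and again rank 3.

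**Figure D1:**
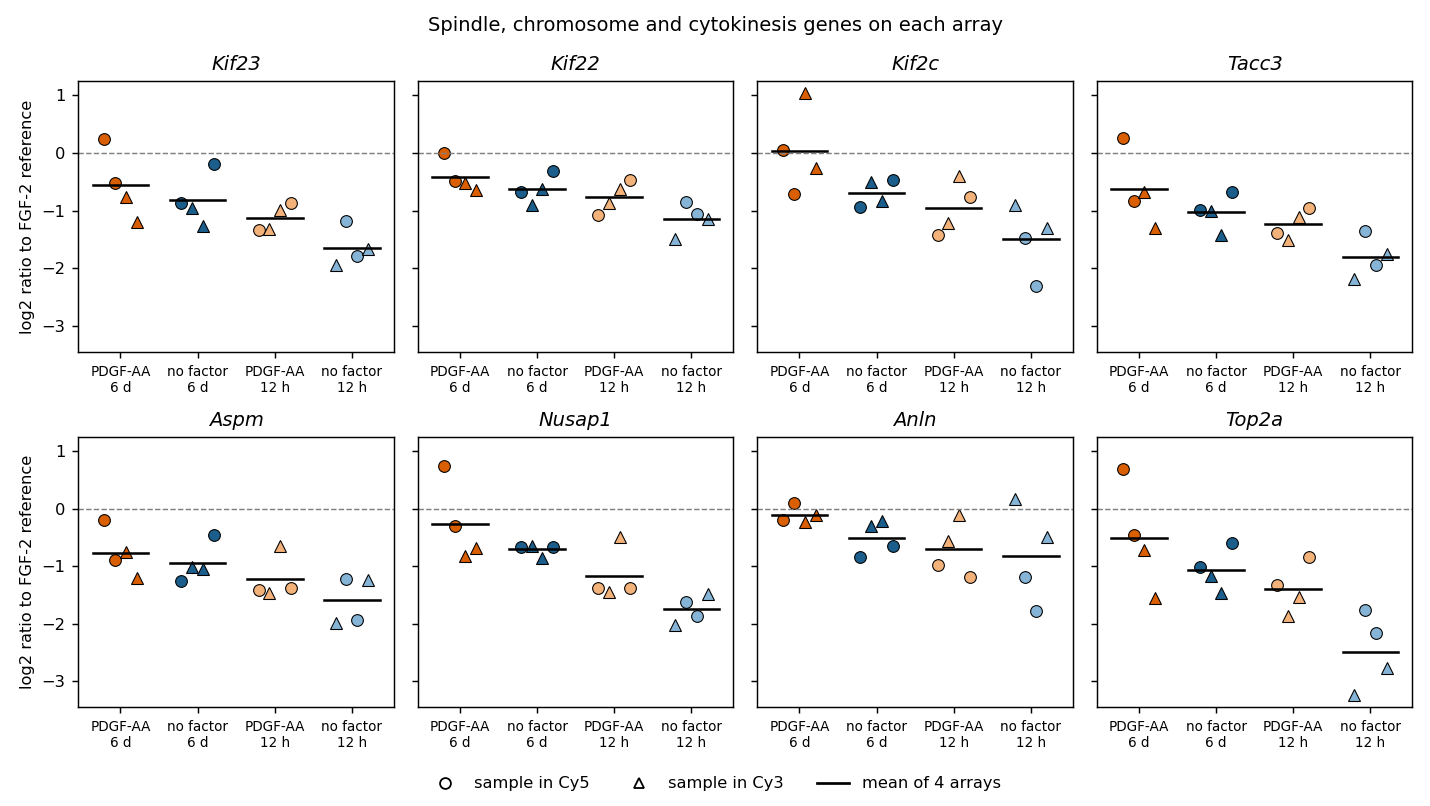
Log2 ratio to the FGF-2 reference (vertical axis) of each gene on each array, by group. Circles are arrays with the sample in Cy5, triangles in Cy3, and bars are means of 4 arrays. The mean over the 8 genes lay between -0.87 and 0.20 on the PDGF-AA arrays at 6 d and between -1.86 and -1.34 on the arrays without factor at 12 h.

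Over the 8 genes, the array means averaged -0.40 ± 0.44 in PDGF-AA at 6 d, -0.80 ± 0.21 in no factor at 6 d, -1.07 ± 0.26 in PDGF-AA at 12 h and -1.60 ± 0.23 in no factor at 12 h (SD, n = 4 arrays each). Of 32 values per group, 24 were below 0 in PDGF-AA at 6 d, 32 in no factor at 6 d, 32 in PDGF-AA at 12 h and 31 in no factor at 12 h. The PDGF-AA group at 6 d was the most spread. Its replicate 1 had 2 of 8 genes below 0 and a mean of 0.20, and its replicate 4 had all 8 below 0 and a mean of -0.87. Without replicate 1, 5 of the 8 genes were past the threshold in PDGF-AA at 6 d in place of 2, Kif23 at -0.77, Kif22 at -0.52 and Top2a at -0.79 being added. Without replicate 2, 3 or 4 of that group none was. After condition and time the array titles hold numbers whose meaning the labels do not give, and the first of these was used here. The commonest number stood on 1 of 4 arrays with PDGF-AA at 6 d, replicate 4, on 3 of 4 without factor at 6 d and on all 8 arrays of 12 h. Its part in the spread was not tested. On the arrays of the commonest number alone the PDGF-AA estimates at 6 d, adjusted for dye, were -1.15 for Top2a, -1.15 for Tacc3 and -1.20 for Aspm. They rest on that 1 array, whose own ratios were -1.55, -1.31 and -1.22 in the same order. The spread of 1 array cannot be measured.

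In order of their estimates, Top2a came lowest in 3 of 4 groups and Anln highest in 3 of 4. In no factor at 12 h the order was Top2a, Tacc3, Nusap1, Kif23, Aspm, Kif2c, Kif22 and Anln. The place of Kif22 rests on the mean of 2 features, which stood at -1.93 and -0.35 there. The 95% intervals of all 7 pairs of neighbours in the order overlapped, in each of the 4 groups. The intervals of the ends did not overlap at 12 h without factor, at -2.87 to -2.11 for Top2a and -1.19 to -0.46 for Anln. Differences between genes were not tested, and cDNA of different genes can differ in how far it compresses a ratio.

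**Figure D2:**
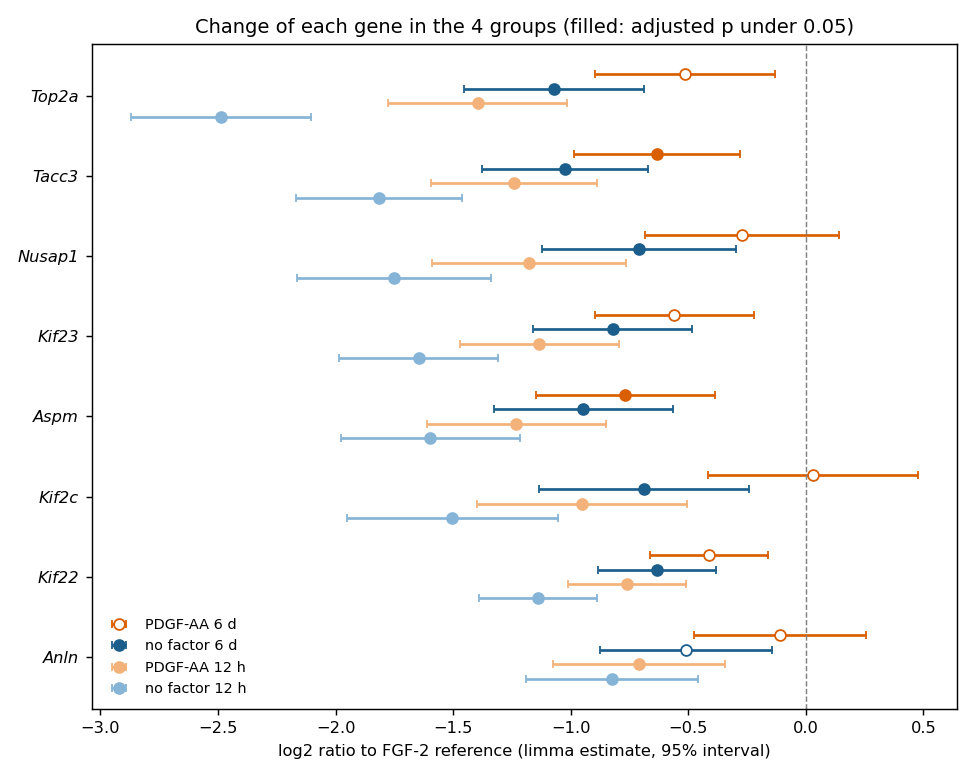
Change of each gene against FGF-2 (horizontal axis, log2 ratio) in the 4 groups, with 95% intervals from limma. Filled points passed an adjusted p of 0.05. All 8 genes are filled in both 12 h groups, 7 in no factor at 6 d and 2 in PDGF-AA at 6 d.

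Kif22 was read by 2 features that did not give the same answer. The lower one changed by -0.86 in PDGF-AA at 6 d, -1.30 in no factor at 6 d, -1.30 in PDGF-AA at 12 h and -1.93 in no factor at 12 h, and it passed the threshold in each (adjusted p between 3.27e-06 and 0.01317). The other stood at 0.04, 0.04, -0.22 and -0.35 in the same order and passed in none. The value of Kif22 above is the mean of the 2, so the gap of 1.59 between them at 12 h without factor is larger than the estimate. Which of them reads the rat messenger better was not tested, since intensities were not used here. The features of the other genes spotted more than once lay closer. Over the 4 groups, those of Top2a lay within 0.39 of each other, those of Aspm within 0.42, the 3 of Kif23 within 0.62 and the 3 of Tacc3 within 0.67. Kif2c, Nusap1 and Anln had 1 feature each, so no second reading of them was made.

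**Figure D3:**
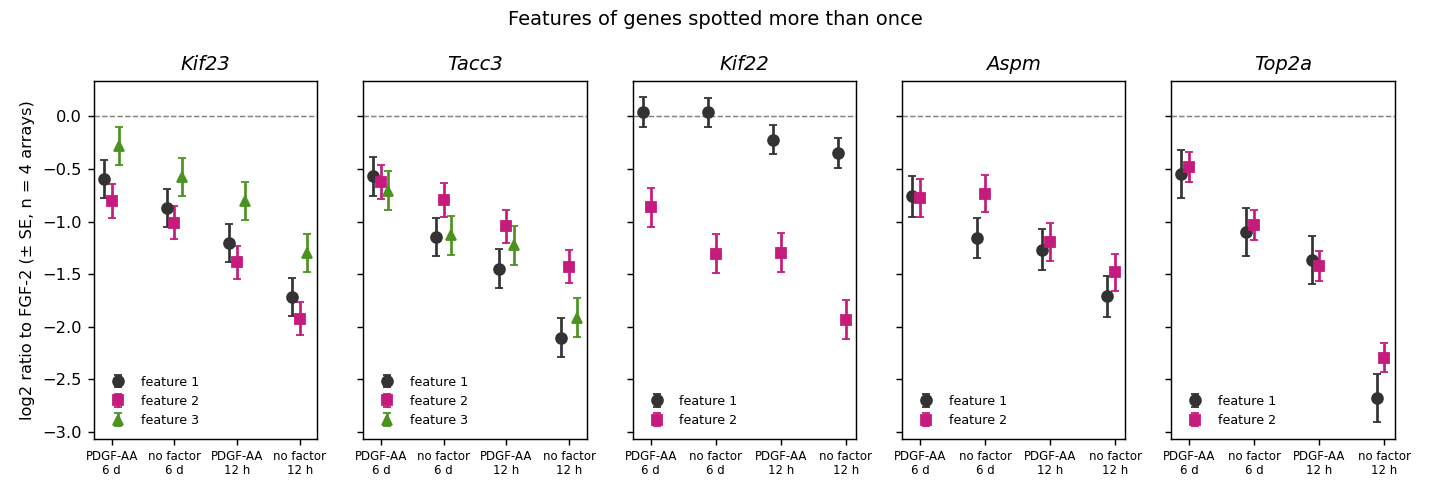
Log2 ratio to FGF-2 (vertical axis) of each feature of the 5 genes spotted more than once, in the 4 groups. Bars are limma standard errors with n = 4 arrays per group and a spread shared by all groups. The 2 features of Kif22 stand 0.91 to 1.59 apart, and feature 1 lies near 0 at 6 d.

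PDGF-AA was set against no factor directly at each time. All 8 estimates were above 0 at 12 h, with a median of 0.53 (all units -0.0027), and all 8 at 6 d, with a median of 0.40 (all units 0.0007). The 8 genes move together from array to array, so these signs are not 8 separate observations. At 12 h the largest difference was that of Top2a, 1.09 ± 0.26 or 2.13-fold higher with PDGF-AA (95% interval 0.55 to 1.63, adjusted p = 0.326). It was called when only the groups compared were fitted (adjusted p = 0.0448), when only arrays of the commonest title number were used (adjusted p = 0.0278) and with array weights (adjusted p = 0.0221), and over the alternatives that averaged the features of a gene the estimate lay between 0.91 and 1.22. Its 2 features taken singly gave 0.87 and 1.32. Tacc3 differed by 0.58 (0.08 to 1.08), Nusap1 by 0.57 (-0.01 to 1.16) and Kif23 by 0.51 (0.03 to 0.99). Anln differed by 0.12 (-0.40 to 0.63). In the limma fit 0 of 8 genes passed the threshold at 12 h, and 4 had an unadjusted p under 0.05, as did 446 of the 12559 units in the same direction. Over all units 0.0159% were higher past the threshold, 2 units. Of the 8 genes Nusap1 alone had all its PDGF-AA arrays above all arrays without factor, against 1.65% of all units.

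At 6 d the largest difference between PDGF-AA and no factor was that of Kif2c, 0.72 ± 0.30 (95% interval 0.08 to 1.35, adjusted p = 0.521), followed by Top2a at 0.56 (0.02 to 1.10). Aspm differed least, by 0.18 (-0.36 to 0.72). In the limma fit 0 of 8 passed and 2 had an unadjusted p under 0.05, where 0.0% of all units were higher past the threshold and 433 had such an unadjusted p. No gene of the 8 had groups without overlap, against 1.31% of units. With the arrays of the commonest title number alone, where 1 PDGF-AA array remained, the estimate had the other sign for 6 of the 8 genes. These were Aspm (-0.36), Kif23 (-0.26), Top2a (-0.20), Tacc3 (-0.16) and, by very little, Nusap1 (-0.0054) and Anln (-0.0014). A difference between the times in the effect of PDGF-AA was tested as an interaction. None of the 8 passed in the limma fit, 0 had an unadjusted p under 0.05, and 0.0% of all units passed in the direction of most of them (248 had such an unadjusted p). The interaction of Top2a was -0.54, with a 95% interval of -1.30 to 0.23.

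Estimates at 6 d lay closer to FGF-2 than those at 12 h, past the threshold for Top2a without factor. Without factor, all 8 differences of 6 d minus 12 h were above 0, with a median of 0.80 (all units 0.0167). Top2a was 1.42 ± 0.26 higher at 6 d (2.67-fold, adjusted p = 0.00764) and was the 1 gene past the threshold, where 1.42% of all units were higher. Nusap1 differed by 1.04 ± 0.28 (adjusted p = 0.068) and Kif23 by 0.82 ± 0.23 (adjusted p = 0.0802), and 7 of 8 had an unadjusted p under 0.05, as did 865 of the 12559 units in the same direction. The call of Top2a was lost without the dye term (1.42, adjusted p = 0.1506) and with scaled arrays (1.26, adjusted p = 0.0591). The count of genes past the threshold was 4 without replicate 1 of PDGF-AA at 6 d, which added Kif23, Tacc3 and Nusap1, and 2 without replicate 3 of PDGF-AA at 12 h, since all arrays share 1 estimate of the spread. Top2a and Nusap1 had all arrays at 6 d above all arrays at 12 h, against 3.62% of all units. With PDGF-AA, all 8 differences were above 0 too, with a median of 0.60 (all units 0.0087), between 0.35 for Kif22 and 0.98 ± 0.30 for Kif2c. In the limma fit 0 of 8 passed with PDGF-AA and 6 had an unadjusted p under 0.05, where 0.637% of all units were higher past the threshold and 807 of 12559 had such an unadjusted p. When only the commonest title number was kept, with 1 PDGF-AA array at 6 d, the difference was 0.25 for Top2a, 0.09 for Tacc3 and 0.03 for Aspm, in place of 0.88, 0.61 and 0.46. Leaving out replicate 3 of PDGF-AA at 12 h brought in Nusap1 (1.18, adjusted p = 0.0372), and leaving out replicate 4 of PDGF-AA at 6 d brought in Top2a (1.10, adjusted p = 0.0343). None of the 8 had groups without overlap, against 1.66% of units. These comparisons between times assume that the FGF-2 RNA was alike on the arrays of both times.

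**Figure D4:**
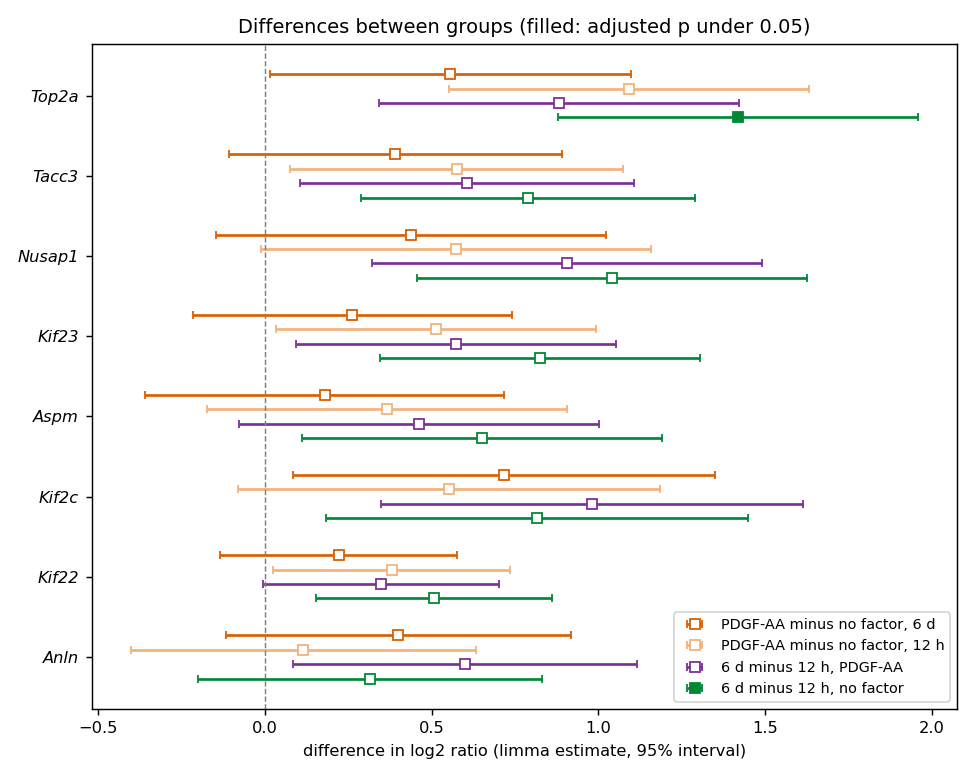
Differences in log2 ratio between groups (horizontal axis), with 95% intervals from limma. Orange squares are PDGF-AA minus no factor, purple and green squares 6 d minus 12 h with and without PDGF-AA, and filled squares passed an adjusted p of 0.05. All 32 estimates lie above 0, and 1 is filled, Top2a for 6 d minus 12 h without factor at 1.42.

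Other genes of the same machinery were read from lists by function. Over all units, 1.9% rose in PDGF-AA at 6 d, 6.99% in no factor at 6 d, 0.661% in PDGF-AA at 12 h and 5.21% in no factor at 12 h, beside the shares that fell given above. After 12 h without factor, 14 of 21 kinetochore and centromere genes fell and 0 rose, with a median of -0.53. They were led by Ndc80 at -1.58, which binds microtubules at the kinetochore, and by Dsn1 at -1.52 and Nsl1 at -1.40, subunits of the Mis12 complex that carries it. Of 29 mitotic kinases, cyclins and checkpoint genes 25 fell and 0 rose, with a median of -1.22, among them the cyclin gene Ccna2 at -1.92, Cdk1 at -1.89 and Ube2c, a ubiquitin carrier of the anaphase-promoting complex, at -1.82. In condensin, cohesin and topoisomerase genes 11 of 21 fell and 1 rose, with a median of -0.33. The condensin genes Smc4, Ncapd2 and Ncaph changed by -1.68, -1.41 and -1.40. Of 17 spindle assembly and microtubule-binding genes 8 fell and 0 rose, with a median of -0.31, led by Prc1, the bundler of the central spindle, at -1.25. Of 22 DNA replication genes 21 fell and 0 rose, with a median of -1.59. The direction of the ratios was taken from such genes, so their fall is not a separate result.

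After 12 h without factor, 2 of 13 genes of cytokinesis and the contractile ring fell and 1 rose, with a median of -0.07. Those that fell were Racgap1, the partner of Kif23 in centralspindlin, at -0.97 ± 0.12 and Mical3 at -0.40, and Chmp4b, a subunit of the abscission machinery that also serves other membranes, rose by 0.37. Of 3 other mitotic kinesins tested, Kif14 fell by 0.43. Of 12 transport and other kinesin genes 1 fell, the vesicle motor Kif5b at -0.35, and 2 rose, Klc4 by 0.53 and Kifc2 by 0.50, with a median of 0.13. With PDGF-AA at 12 h Kif14 fell by 0.56 and Racgap1 by 0.71. Of the 13 cytokinesis genes, 1 fell without factor at 6 d, Racgap1 by 0.63, and 1 rose, Mylk by 0.62. Without factor at 6 d 5 of the 12 transport and other kinesins rose, where 6.99% of all units did, led by Kifc2 at 0.72 and Kifc3 at 0.49.

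With PDGF-AA at 12 h, 21 of the 29 kinase and checkpoint genes fell, 9 of the 21 kinetochore genes, 6 of the 21 condensin and cohesin genes, 5 of the 17 spindle assembly genes and 10 of the 22 replication genes, and none of these lists had a gene that rose. The median of the replication list was -0.46 there and that of the kinase list -0.89, while the 8 genes stood at -1.15. In no factor at 6 d the counts that fell were 19 of 29, 4 of 21, 5 of 21, 5 of 17 and 18 of 22 in the same order, and 1 gene rose in the condensin and in the spindle assembly list. In PDGF-AA at 6 d they were 3, 1, 0, 0 and 1. The 3 kinase and checkpoint genes were Bub1 at -0.67, Pttg1, which encodes securin, at -0.60 and Nek2 at -0.56, beside the kinetochore histone gene Cenpa at -0.52. No difference between lists was tested.

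**Figure D5:**
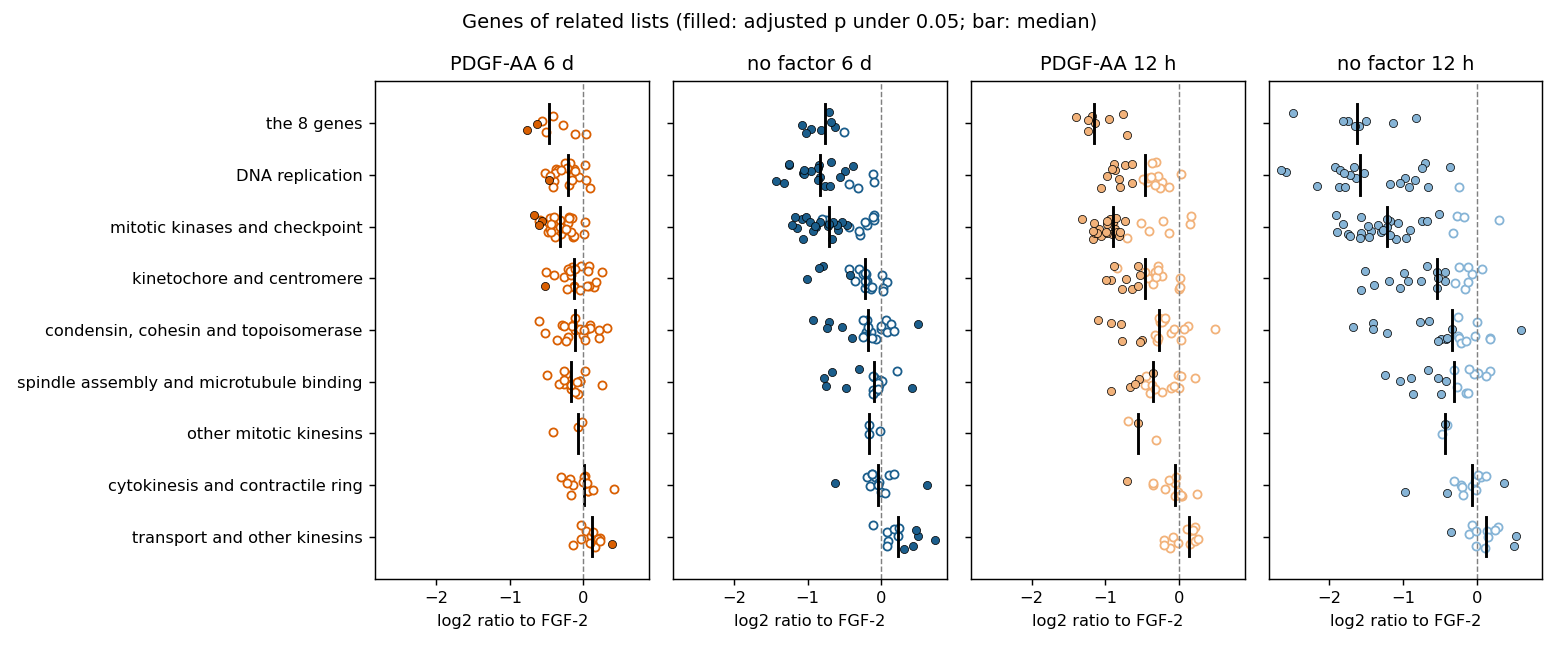
Log2 ratio to FGF-2 (horizontal axis) of every tested gene of the lists by function, in the 4 groups. Points are genes, filled where the adjusted p was under 0.05, and bars are medians. The 8 genes have medians of -0.46, -0.77, -1.15 and -1.62 in the panels from left to right, and the transport kinesins of 0.12, 0.23, 0.14 and 0.13 in the same order.

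Markers of progenitors and of differentiated cells moved beside the 8 genes. Of the 7 progenitor markers 2 fell and 1 rose in PDGF-AA at 6 d, 2 fell and 2 rose in no factor at 6 d, 1 fell and 1 rose in PDGF-AA at 12 h, and 2 fell and 1 rose in no factor at 12 h. The array means of that list lay between -0.20 and 0.41, between -0.22 and 0.27, between -0.23 and 0.02 and between -0.07 and 0.11 in the same order of groups. With PDGF-AA at 6 d, 3 of 6 tested astrocyte markers rose and the array means of that list lay between 0.05 and 1.39, and without factor 5 of 6 rose, with means between 0.88 and 1.82. At 12 h the astrocyte means lay between 0.07 and 0.38 with PDGF-AA and between 0.24 and 0.52 without factor. Without factor at 12 h the astrocyte marker Aldoc rose by 1.29 and Slc1a3 fell by 0.44. Of 3 oligodendrocyte lineage markers 2 rose in PDGF-AA at 6 d, with array means of 0.77 to 2.27, and 3 in no factor at 6 d, with 0.70 to 2.29. At 12 h the means of that list were 0.09 to 0.55 with PDGF-AA and 0.20 to 0.93 without factor, where Sirt2 rose by 0.67. Of 4 fibroblast and mesenchymal markers 2 rose in PDGF-AA at 6 d, with array means of 0.20 to 0.89, and 3 in no factor at 6 d, with 0.73 to 0.88. Their means at 12 h were -0.11 to 0.42 with PDGF-AA and 0.18 to 0.41 without factor, where Pdgfrb rose by 0.56. Of 4 neuron markers 0 rose in PDGF-AA at 6 d, with means of -0.16 to 0.37, and 2 in no factor at 6 d, with 0.16 to 0.64. With PDGF-AA at 12 h the neuron means were 0.22 to 0.27 and Uchl1 rose by 0.50, and without factor they were 0.09 to 0.29, Mapt rose by 0.77 and Uchl1 by 0.38, and Gap43 fell by 0.52. For microglia and for endothelium 2 markers each were tested, and 0 passed the threshold in any of the 4 groups. The part of these cell types in the values of the 8 genes was not tested.

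The 8 genes followed each other over the arrays. With each unit's dye effect removed, the 28 pairs correlated at 0.44 to 0.97 over the 16 arrays, with a median of 0.855, and within groups at -0.07 to 0.93, with a median of 0.657. The closest pair was Kif23 and Tacc3 at 0.971. Anln was least like the rest, at 0.60 with the mean of the others. Among named genes outside the 8, those most like their mean were Tcf19 (r = 0.966), the condensin gene Smc2 (0.961), Ndc80 (0.959), Incenp, the scaffold of the Aurora B complex (0.957), and Prc1 (0.955). Tcf19 changed by -0.10, -0.42, -0.76 and -1.56 in PDGF-AA at 6 d, no factor at 6 d, PDGF-AA at 12 h and no factor at 12 h. These correlations describe 16 arrays that share a reference and fall into 4 groups, and they say nothing on what links the genes.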

How the data were processed

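The authors deposited 1 log ratio per feature and array, taken here as log2. Per the labels, RNA was labelled with Cy3 or Cy5 and hybridised to mouse cDNA chips, so rat RNA was read on mouse sequence. Background correction, normalisation and filters are not given in the sources used here. Spot intensities were not used. Of 15151 features 8833 had 1 symbol in the chip annotation. Features of 1 symbol were averaged per array, and a unit was kept if each group had values on 3 or more arrays. Arrays were centred on their median (deposited medians -0.0053 to 0.0387). All 16 arrays were fitted together in limma 3.58.1 (R 4.3.3) with group coefficients and a dye term, then moderated by empirical Bayes. Tests were two-sided with Benjamini-Hochberg adjustment over 12559 units and a threshold of 0.05. A ratio was tested against 0, which leaves out the spread of the FGF-2 RNA. The script was tested on simulated data. The 8 genes and all lists were chosen with earlier results of these data known. From each other list, up to 3 genes with the largest change past the threshold could be named, and Tcf19, Smc2, Ndc80, Incenp and Prc1 are the 5 most like the mean of the 8. Promoter sequences are RefSeq's (GRCr8), matched by symbol. Alternatives were no dye term, no centring, scaling of arrays, the first title number as a term, arrays of the commonest number, only the compared groups, single features, array weights and leaving out each array. The title term set the commonest number against all other numbers pooled, so the other numbers were not adjusted for singly. Replicate numbers follow the order of deposition and only name an array.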

Additional observations from a re-analysis of the deposited data

Results flagged for a closer look

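In 36 sets of 4 arrays (each of the 8 genes and their mean in each group), 1 array far from the other 3 was looked for with Dixon's test at its 95% critical value, which chance passes in about 1 of 20 sets, and 3 sets passed. Aspm in PDGF-AA at 12 h had replicate 3 at -0.6552, with the others between -1.46 and -1.39. Nusap1 in PDGF-AA at 12 h had the same array at -0.49, with the others between -1.45 and -1.38. Nusap1 in no factor at 6 d had replicate 3 at -0.8554, with the others between -0.68 and -0.64.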

How the results depend on the processing

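Over 1728 recomputed values of single genes, 1628 stayed on their side of the threshold, 74 calls were lost and 26 gained. Of the lost calls, 25 fell in the setting at the rarer title numbers, which was added after seeing the data and is described below. No called value reversed, and 27 values that never passed changed sign. All 8 genes stayed called in no factor at 12 h under each alternative other than the loss of 1 array and the added setting below, though 1 of 2 Kif22 features was not (-0.35, adjusted p = 0.1264). For PDGF-AA at 6 d (2 genes), the count was 1 without the dye term, without centring, with scaled arrays (Aspm in each) and with arrays of the commonest title number (Top2a, from 1 remaining PDGF-AA array whose spread is taken from the other groups), 0 with the title number as a term, with only the compared groups and with array weights, and 4 with single features (Kif23, Kif22, Tacc3 and Aspm), where a gene counts if any of its features passed. For 6 d against 12 h without factor (1 gene), the count was 0 without the dye term and with scaled arrays, 2 with arrays of the commonest title number, with only the compared groups and with single features, and 4 with array weights. For 6 d against 12 h with PDGF-AA (0), it was 1 with single features and 2 with array weights. For PDGF-AA against no factor at 12 h (0), it was 1 (Top2a) with arrays of the commonest title number, with only the compared groups and with array weights. Read at the rarer title numbers, a setting added after seeing the data, the count was 0 against FGF-2 in all 4 groups, but no 12 h array carries those numbers. Leaving out single arrays gave 0 to 5 genes in PDGF-AA at 6 d, 5 to 8 in no factor at 6 d, 6 to 8 in PDGF-AA at 12 h and 7 to 8 in no factor at 12 h. It gave 0 to 1 for 6 d against 12 h with PDGF-AA, 1 to 4 without factor, and 0 for both comparisons of PDGF-AA with no factor and the interaction. Units called in total were counted over the alternatives other than single losses and single features. At 6 d they lay between 28 and 622 (404 as reported) with PDGF-AA and between 172 and 1901 (1723) without factor. At 12 h they lay between 0 and 1745 (378) with PDGF-AA and between 0 and 2300 (1468) without factor. No paired analysis was possible because replicate numbers follow deposition order and pair no samples. With no intensities, signal over background is unknown, and 4 arrays per group limit the precision.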
